A study of Mus musculus with 4 samples.

Results

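The small leucine-rich proteoglycans (SLRPs) examined here are the 10 genes Dcn, Bgn, Aspn, Lum, Fmod, Prelp, Ogn, Omd, Podn and Chad, out of 37310 annotated genes in the count files. They were chosen by family membership. The rule uses no counts, but earlier results of these data were known when it was written. RNA was compared between wild-type C57Bl/6 mice aged 3 months (mature) and 24 months (elderly), with 2 libraries per age and no treatment in either group. The sample labels name whole bone marrow, whereas the methods of the study describe male mice and Lin-LEPR+ skeletal stem and progenitor cells (SSPCs), sorted from the marrow by the leptin receptor (LEPR) after exclusion of Ter119+, CD31+ and CD45+ cells. The labels number the libraries by mouse, whereas the methods of the study describe RNA pools of 3 or 4 mice per group. A p-value below therefore sets the age difference against the spread between libraries, which may be pools. In edgeR's quasi-likelihood test, each gene's spread (2 residual degrees of freedom) was drawn toward that of the other genes (median prior degrees of freedom 9.96).

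SLRPs are secreted proteins of the extracellular matrix, built from a core of leucine-rich repeats that curves into a solenoid and often carries chondroitin, dermatan or keratan sulfate chains. They bind fibrillar collagens and set the width and spacing of fibrils, and several also bind growth factors such as TGF-beta or receptors on the cell surface. In bone, biglycan, decorin, osteoadherin and asporin are known as matrix components laid down by cells of the osteoblast lineage. By structure, Dcn, Bgn and Aspn form class I, Lum, Fmod, Prelp and Omd class II, Ogn class III, and Chad and Podn belong to the non-canonical classes.

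The coding sequences were compared pair by pair. Translated from the coding sequences of GENCODE M1, decorin and biglycan were identical at 56.9% of aligned positions, biglycan and asporin at 53.0%, and decorin and asporin at 50.6%. In class II, lumican and fibromodulin shared 47.5% and fibromodulin and PRELP 42.3%, but fibromodulin and osteoadherin, of the same class, shared only 37.6%, below lumican and podocan of different classes at 39.4%. The least alike pair was decorin and osteoadherin, at 28.0%. Ser-Gly pairs, the residues to which chondroitin and dermatan sulfate chains can be joined, numbered 1 in decorin and 2 in biglycan within the first 80 codons, and 0 in asporin, which lacks such a chain. Lumican, whose chains are keratan sulfate, also had 1. The first 100 codons held 13 tyrosine codons in Fmod, 9 in Omd and 8 in Lum, the members known for N-terminal tyrosine sulfation, and 14 arginine or lysine codons in Prelp, whose basic N terminus is known to bind heparin. The stretch that gives asporin its name is shown because it sets Aspn apart from its class I relatives. It lies in exon 2 of 8 of Aspn-201, on the plus strand at chr13:49647114-49647200 (mm9), and the capitals mark the 2 runs of 4 aspartate codons, codons 38 to 41 and 43 to 46.
Aspn: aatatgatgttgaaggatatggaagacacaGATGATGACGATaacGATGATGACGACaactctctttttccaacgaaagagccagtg

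Most SLRP genes lie in clusters (coordinates in mm9, the build of the files). Dcn (chr10:96942245-96980777) and Lum (chr10:97028135-97035337) are plus-strand neighbours separated by 47357 bases and followed by Kera and Epyc. Aspn (chr13:49639812-49662926), Omd (chr13:49678135-49687978) and Ogn (chr13:49703440-49719869) follow Ecm2 on the plus strand of chromosome 13, all within the span of the minus-strand gene Cenpp. Prelp (chr1:135806881-135817991, minus strand) and Fmod (chr1:135933831-135944854, plus strand) lie 115839 bases apart, next to Optc. Bgn (chrX:70728941-70741272), Podn (chr4:107687396-107704942, minus strand) and Chad (chr11:94426361-94430441, inside the minus-strand gene Acsf2) stand alone.

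RefSeq's promoter table (GRCm38.p6) holds 8 of the 10 members, not Dcn or Lum. The 250 bases before the RefSeq start are shown for the 3 members that neighbour each other on chromosome 13, whose levels differ widely. They are also shown for Bgn, the member with the most counts. The windows of Aspn and Bgn ended 0 and 1 bases before the first annotated base of the gene in mm9. Those of Ogn and Omd ended 56 and 304 bases before it. Each window matched mm9 once, at chr13:49639562-49639811 for Aspn, chr13:49677581-49677830 for Omd, chr13:49703134-49703383 for Ogn and chrX:70728690-70728939 for Bgn, all on the plus strand. Capitals mark matches on either strand, which may overlap, of TATAAA (the TATA box), GGGCGG (the GC box bound by SP1), TGTGGT (a core bound by RUNX factors), CAGAC (the SMAD core), TGANTCA (the AP-1 site), CCCNNGGG (an EBF core), GTAAACA (a forkhead site) and CACGTG (the E-box).
Aspn: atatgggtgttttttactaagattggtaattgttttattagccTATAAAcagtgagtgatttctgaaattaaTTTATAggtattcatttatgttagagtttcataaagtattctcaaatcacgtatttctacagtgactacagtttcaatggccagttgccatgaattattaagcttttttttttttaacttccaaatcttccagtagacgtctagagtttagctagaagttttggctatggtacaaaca
Omd: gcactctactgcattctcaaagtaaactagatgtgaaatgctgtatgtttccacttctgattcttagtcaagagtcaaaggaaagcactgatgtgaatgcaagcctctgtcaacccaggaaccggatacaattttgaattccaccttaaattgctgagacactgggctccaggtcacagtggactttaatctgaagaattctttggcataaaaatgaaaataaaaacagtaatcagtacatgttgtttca
Ogn: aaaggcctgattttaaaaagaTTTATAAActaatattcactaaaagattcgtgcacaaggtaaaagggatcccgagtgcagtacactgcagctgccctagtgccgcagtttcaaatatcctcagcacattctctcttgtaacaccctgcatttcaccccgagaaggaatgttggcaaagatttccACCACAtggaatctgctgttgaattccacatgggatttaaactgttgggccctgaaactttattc
Bgn: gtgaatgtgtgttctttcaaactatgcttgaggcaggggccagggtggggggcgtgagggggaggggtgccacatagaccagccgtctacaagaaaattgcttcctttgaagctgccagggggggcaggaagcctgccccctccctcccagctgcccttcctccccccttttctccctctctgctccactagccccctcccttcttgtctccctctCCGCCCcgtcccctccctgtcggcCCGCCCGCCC

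The Bgn window held 3 matches of GGGCGG and 64.4% G or C. The Aspn window was at 30.0% G or C with 2 matches of TATAAA, the Ogn window held 2 overlapping matches of TATAAA and 1 of TGTGGT, and the Omd window held none of the 8 motifs. The median over all 32851 windows was 52.4% G or C. TATAAA was in 3 of the 8 members (Aspn, Chad and Ogn) and in 12.4% of all windows, and GGGCGG in 3 of 8 (Bgn, Chad and Podn) and in 32.7%. TGTGGT was in 1 of 8 and in 14.1% of all windows, and CAGAC in 2 of 8 (Fmod and Prelp) and in 42.2%. The AP-1 site, the EBF core, the forkhead site and the E-box were in 0 of 8, and in 6.75%, 11.8%, 3.17% and 6.02% of all windows.

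The files count reads per transcript only on bases that no other annotated transcript shares, on either strand: all 25621 transcripts without such a base had 0 counts in every library. For Aspn, Lum, Ogn, Omd and Chad, each with 1 transcript, every exonic base could be counted. Fmod-001 and Prelp-001 kept 88.9% and 77.2% of their bases. Bgn-001 kept 808 of 2377 bases, all of them in the 3′ UTR of its last exon, and held 99.2% of the Bgn counts. Podn was counted in 62.1% from Podn-003, a transcript without coding bases of its own, and coding Podn-001 received 4 counts in all. Dcn is the extreme case. Its 2 transcripts share exons 2 to 8 except for 16 bases, and its counts come from alternative first exons in the 5′ UTR, of 179 bases in Dcn-201 (chr10:96942245-96942423) and 181 bases in Dcn-202 (chr10:96945001-96945181). A count of Dcn is therefore a count of reads on those first exons and on 16 bases at the 3′ end, and reads on the shared exons were not counted.

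**Figure D1:**
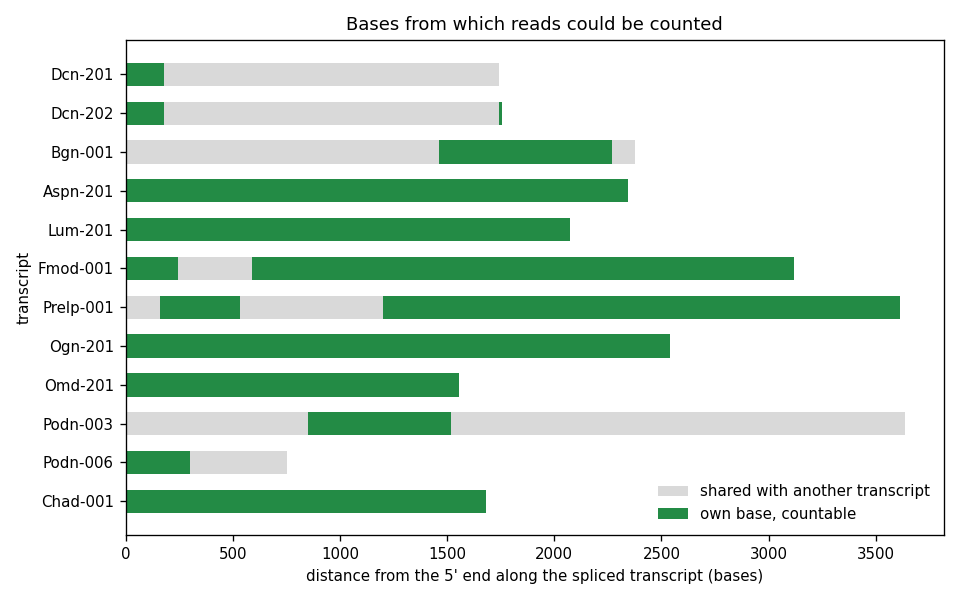
Countable bases of the SLRP transcripts that held more than 5% of their gene's counts. The x axis is the distance from the 5′ end along the spliced transcript in bases, green marks bases that belong to this transcript alone and grey marks bases shared with another transcript. Dcn-201 could be counted on its first 179 bases alone, Bgn-001 on 808 bases near its 3′ end, and Aspn, Lum, Ogn, Omd and Chad over their whole length.

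All 10 SLRP genes were detected in each library, between 5.01 and 1585 CPM (reads counted per library, scaled to its TMM-corrected size). Bgn, Ogn and Prelp dominated the family: together they held 91.7% and 90.9% of the summed SLRP CPM in the mature libraries and 86.0% and 84.1% in the elderly libraries. The sum over the 10 genes was 4355 and 4222 CPM in mature and 3442 and 4999 CPM in elderly libraries. The elderly libraries thus lay on either side of the mature ones.

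Per kilobase of countable exon, the level in mature libraries was 1278 ± 7.44 CPM per kb for Bgn (SD, n = 2), 508 ± 31.7 for Ogn and 375 ± 7.09 for Prelp. Lum followed at 112 ± 2.97 CPM per kb and Dcn at 59.8 ± 7.15. Omd, which encodes osteoadherin, stood at 27.2 ± 1.73 CPM per kb, Podn at 14.5 ± 1.67 and Fmod at 11.3 ± 2.24. Aspn, at 7.65 ± 5.03, and Chad, at 4.78 ± 0.932 CPM per kb, were lowest. In elderly libraries the levels were 1202 ± 29.2 CPM per kb for Bgn, 438 ± 166 for Ogn, 353 ± 151 for Prelp, 218 ± 83.8 for Lum, 133 ± 0.339 for Dcn, 32.9 ± 7.95 for Omd, 14.3 ± 2.04 for Podn, 14.1 ± 13.5 for Aspn, 9.62 ± 2.75 for Fmod and 3.88 ± 1.27 for Chad.

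Over the 4 libraries, the ranges of neighbours in this order were apart between Bgn and Ogn, Dcn and Omd, Omd and Podn, and Fmod and Chad. Ogn stood above Prelp, Prelp above Lum and Lum above Dcn in 4 of 4 libraries, but the ranges of each pair overlapped. Podn stood above Fmod in 4 of 4 libraries with ranges that just overlapped (12.9 to 15.7 against 7.68 to 12.9 CPM per kb), and Aspn, at 4.09 to 23.6, spanned both. Divided by the longest transcript instead, Bgn, Ogn, Prelp, Lum and Chad kept their ranks, whereas Dcn moved from rank 5 to rank 6 and Podn from rank 7 to rank 9. A short countable stretch loses reads that reach into shared bases, which bears on Dcn and Podn; the size of this loss was not tested.

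**Figure D2:**
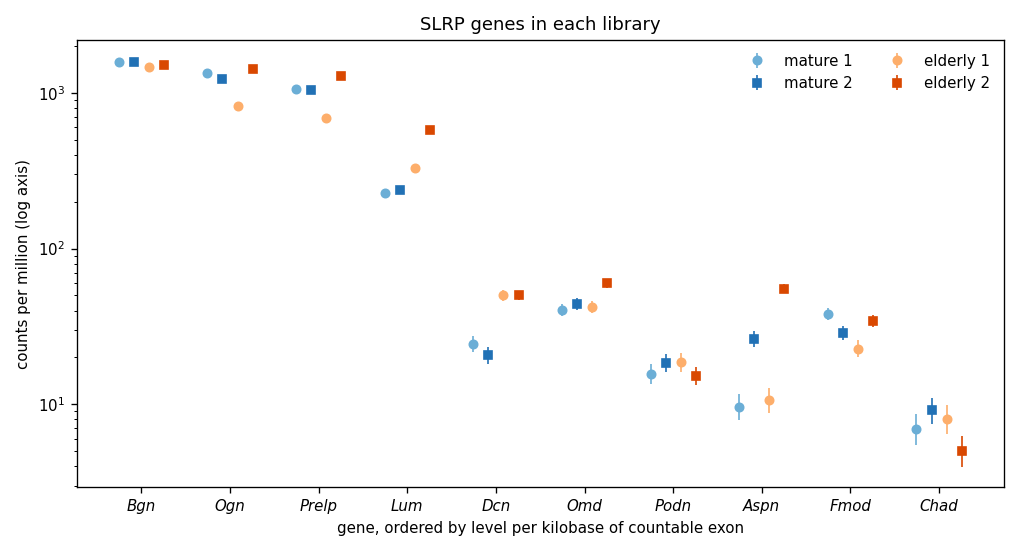
CPM of each SLRP gene in the 4 libraries on a log axis, ordered by mean level per kilobase of countable exon; bars are exact 95% Poisson intervals. Both elderly libraries lie above both mature libraries for Dcn and Lum, and the elderly libraries stand farthest apart for Aspn, at 10.6 and 55.4 CPM.

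To ask whether the family changed with age, all 22214 genes with more than 2 counts in all were fitted in edgeR's quasi-likelihood test, and genes were called at a Benjamini-Hochberg adjusted p under 0.05. Of the 10 SLRP genes, 1 was called higher in elderly libraries (Dcn) and 0 were called lower, with 2 of the 10 at an unadjusted p under 0.05 (Dcn and Lum). Over all genes tested, 1.94% were called higher and 0.423% lower, and 7.1% were higher and 3.83% lower at an unadjusted p under 0.05. Both elderly libraries stood above both mature ones for 2 SLRP genes, Dcn and Lum, as for 22% of all genes, and below them for 1, Bgn, as for 18.9% of all genes. The log2 fold changes (elderly over mature) had a median of -0.06 over the SLRP genes and -0.01 over all genes. In these bulk libraries, fewer cells of a type and less RNA per cell cannot be told apart.

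Dcn, which encodes decorin, a collagen-binding proteoglycan that also binds TGF-beta, had the smallest p of the 10 SLRP genes. It stood at 24.4 and 20.6 CPM in mature and at 50.2 and 50.0 CPM in elderly libraries (282, 239, 557 and 769 counts). Both elderly libraries were above both mature ones, and their exact Poisson intervals (46.1 to 54.6 and 46.6 to 53.7 CPM) did not reach those of the mature libraries (21.6 to 27.4 and 18.1 to 23.4 CPM). These intervals cover counting error only. The level of Dcn, counted without its shared exons, rose 2.23-fold, a log2 fold change of 1.16 ± 0.23 (SE; 95% interval 0.66 to 1.65; adjusted p = 0.0204 in edgeR's quasi-likelihood test). Whether reads on the shared exons rose alike could not be tested. The estimate stayed between 1.01 and 1.29 when any 1 library was left out. The call was lost without mature replicate 2 (adjusted p = 0.165), without elderly replicate 1 (adjusted p = 0.611) and without elderly replicate 2 (adjusted p = 0.605), and in both fits without an elderly library 0 genes of the whole table were called; Dcn stood there at an unadjusted p of 0.0139 and 0.0146. It was also lost in the exact test at the dispersion of 0.2 that the study's methods name (adjusted p = 0.84).

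Reads on the first exon of Dcn-201 made up 94.7% of the Dcn counts in mature replicate 1 (95% Wilson interval 91.4% to 96.8%), 90.0% in mature replicate 2 (85.5% to 93.2%), 92.3% in elderly replicate 1 (89.8% to 94.2%) and 93.9% in elderly replicate 2 (92.0% to 95.4%). The ages overlapped in this share. Tested per transcript, Dcn-201 had 267 and 215 counts in mature and 514 and 722 counts in elderly libraries, a log2 fold change of 1.22 ± 0.27 (SE; adjusted p = 0.0147), where 1.43% of 42351 transcripts were called higher. Dcn-202 had 15, 24, 43 and 47 counts and a log2 fold change of 1.09 ± 0.49 (SE), which was not called (adjusted p = 0.511).

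Lum, the genomic neighbour of Dcn, encodes lumican, a keratan sulfate proteoglycan that regulates collagen fibrils. Its level was 227 and 236 CPM in mature and 329 and 575 CPM in elderly libraries. Both elderly libraries were above the mature ones, but they differed from each other by more than the mature pair. The log2 fold change was 0.96 ± 0.25 (SE; 95% interval 0.43 to 1.50) and missed the threshold (adjusted p = 0.0701 in edgeR's quasi-likelihood test). Lum passed in DESeq2 (adjusted p = 0.00891, where 3.7% of 14892 genes with an adjusted p were called higher), and over 16 alternatives its log2 fold change lay between 0.51 and 1.34 and it was called in 7.

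Aspn, which encodes asporin, a class I member without a glycosaminoglycan chain that binds calcium and collagen, varied between libraries of the same age more than it differed between ages. It stood at 9.60 and 26.3 CPM in mature and at 10.6 and 55.4 CPM in elderly libraries. The first library of each age was low and the second high, and the ages overlapped. The log2 fold change of 0.89 ± 0.59 (SE; 95% interval -0.41 to 2.18) was not called (adjusted p = 0.667), and it turned to -0.75 without elderly replicate 2. Elderly replicate 2 stood 5.21-fold above elderly replicate 1, and only 0.0284% of 7047 genes with a mean of at least 10 CPM had a higher ratio.

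Bgn, the most abundant member, encodes biglycan, which carries chondroitin or dermatan sulfate chains and is a known component of bone matrix. Its values were 1585, 1572, 1459 and 1510 CPM, in the order mature 1, mature 2, elderly 1 and elderly 2. Both elderly libraries were below both mature ones, by little: the log2 fold change was -0.09, its 95% interval ran from -0.48 to 0.30, and it was not called (adjusted p = 0.930). Among the minor Bgn transcripts, Bgn-005, counted on 85 bases of its first 2 exons, had 69, 81, 122 and 184 counts and was not called (log2 fold change 0.89 ± 0.34, SE; adjusted p = 0.338).

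Ogn and Prelp shared a pattern with Fmod. Ogn, which encodes osteoglycin (mimecan), stood at 1347 and 1233 CPM in mature and at 816 and 1410 CPM in elderly libraries. Prelp, whose product anchors matrix to heparan sulfate, stood at 1061, 1033, 686 and 1284 CPM in the same order, and Fmod, which encodes the collagen cross-link regulator fibromodulin, at 38.1, 28.7, 22.7 and 34.2 CPM. Each was lowest in elderly replicate 1, whereas elderly replicate 2 lay above both mature libraries for Ogn and Prelp and between them for Fmod. Their log2 fold changes of -0.21, -0.09 and -0.23 were not called (adjusted p = 0.841, 0.951 and 0.852). Without elderly replicate 1 they turned to 0.16, 0.32 and 0.06.

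Omd, which encodes the bone keratan sulfate proteoglycan osteoadherin, stood at 40.5 and 44.3 CPM in mature and at 42.4 and 59.9 CPM in elderly libraries (log2 fold change 0.27, 95% interval -0.23 to 0.77, adjusted p = 0.736). Podn, which encodes podocan, stood at 15.7, 18.5, 18.6 and 15.2 CPM and Chad, which encodes the cartilage protein chondroadherin, at 6.92, 9.14, 8.02 and 5.01 CPM. The ages overlapped for all 3 genes. The 95% interval of the log2 fold change was -0.61 to 0.56 for Podn and -1.08 to 0.46 for Chad, so a change of the size seen for Dcn lies outside the intervals of Omd, Podn and Chad.

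**Figure D3:**
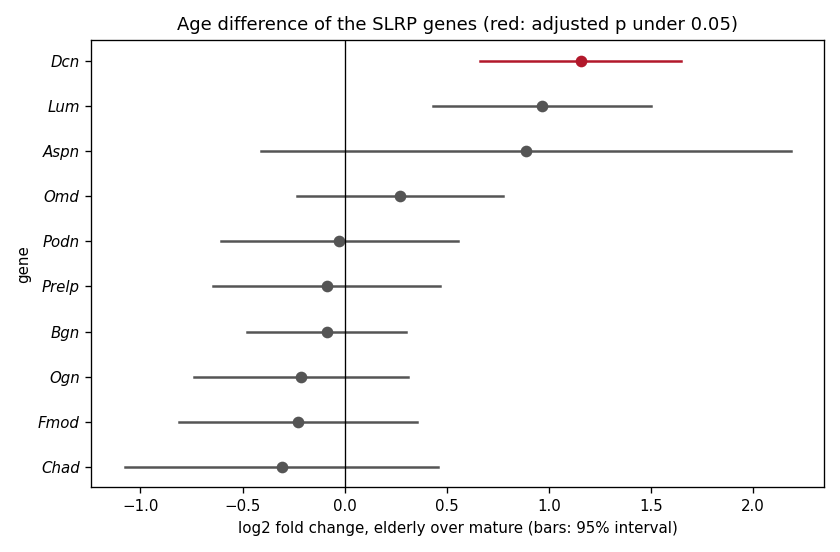
Log2 fold change (elderly over mature) of each SLRP gene with its 95% interval from edgeR's quasi-likelihood fit; red marks an adjusted p under 0.05 and the vertical line marks no change. Dcn, at 1.16, is called, and the intervals of Dcn and Lum lie above 0, whereas those of the other genes include 0.

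The libraries of the same age were compared next, since 6 of the 10 genes were higher in elderly replicate 2 than in elderly replicate 1 by at least 1.41-fold. After Aspn, the ratio was 1.87 for Prelp, 1.75 for Lum, 1.73 for Ogn, 1.51 for Fmod and 1.41 for Omd. Of the 7047 genes with a mean of at least 10 CPM, 1.76%, 2.34%, 2.45%, 6.03% and 9.28% had a higher ratio, respectively. Bgn and Dcn were nearly equal in the elderly pair, at ratios of 1.04 and 1.00, and Podn (0.816) and Chad (0.625) were lower in elderly replicate 2. In the mature pair Aspn again had the highest ratio of the 10 genes, 2.74, with 0.383% of genes higher. The summed CPM of 15 markers of LEPR+ stroma, among them Lepr, Cxcl12 and Kitl, was 40890 and 40470 in mature and 25570 and 35450 in elderly libraries, so that it too was lowest in elderly replicate 1. That library was also the shallowest, at 10472117 counts against 15650518 in elderly replicate 2 and 11930137 and 11730849 in the mature libraries. The part of either in the values of the SLRP genes was not tested.

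**Figure D4:**
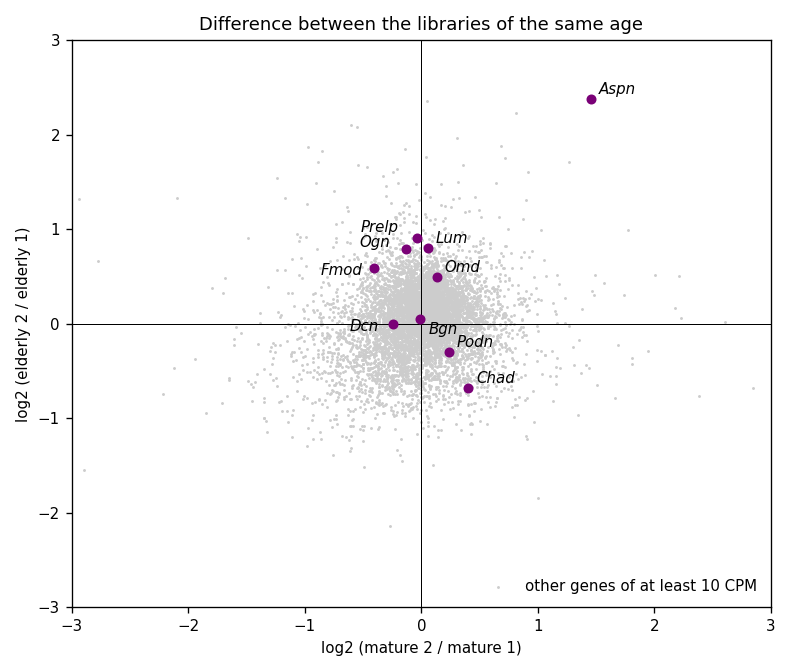
Log2 ratio of elderly replicate 2 over elderly replicate 1 against that of mature replicate 2 over mature replicate 1, for the SLRP genes (purple) and 7034 other genes of at least 10 CPM on average and above 0 in every library (grey; 15 lie outside the axes). Aspn is high on both axes, Prelp, Ogn, Lum, Fmod and Omd are raised on the elderly axis, and Dcn and Bgn lie near 0 on it.

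The neighbours in the genome were also read. Kera and Epyc, the eye and cartilage SLRP genes beyond Lum, had 0 counts in all 4 libraries, though 27 and 545 of their bases could be counted. In the cluster on chromosome 13, Ecm2, which encodes a matrix protein of the same fold, stood at 198 and 178 CPM in mature and at 103 and 186 CPM in elderly libraries and was not called (adjusted p = 0.667). Cenpp, the centromere protein gene that spans Aspn, Omd and Ogn on the opposite strand, stood at 3.29, 2.93, 3.43 and 3.64 CPM, counted on 642 exonic bases of its own that none of them shares. Of the 4 SLRP genes in this cluster, all were higher in elderly replicate 2 than in elderly replicate 1. On chromosome 1, Optc stood at 0.346, 1.64, 2.25 and 1.04 CPM. Gm15851, a plus-strand transcript overlapping Prelp, stood at 1.47, 2.24, 1.17 and 2.73 CPM. Btg2 beyond Fmod stood at 2109, 2215, 1818 and 2284 CPM, with no call for any of these.

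Of 8 further SLRP genes, 6 could be tested and 0 were called in edgeR's quasi-likelihood test or in DESeq2, with 0 at an unadjusted p under 0.05 in either. Podnl1, which encodes a podocan-like protein, was the most counted, at 288 and 248 CPM in mature and 206 and 223 CPM in elderly libraries (adjusted p = 0.609). The growth-factor modulator Tsku stood at 2.60, 1.12, 0.992 and 1.11 CPM, Chadl at 2.86, 5.43, 4.87 and 4.03 CPM and Nyx at 1.47, 1.12, 1.98 and 0.781 CPM.

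Genes whose profile over the 4 libraries was nearest to that of Dcn, by the root mean square difference of centred log2 CPM among 7046 genes, were Anxa3 (0.0333), Lyl1 (0.0452) and Prr11 (0.0548). Lum was the nearest SLRP gene, at 0.329. Anxa3 stood at 27.7, 24.5, 56.0 and 57.7 CPM. Nearest to Aspn were Sparcl1, a matricellular gene at 9.52, 15.3, 11.6 and 42.8 CPM (0.351), Gm12250 (0.374) and Grm7 (0.433), and Lum among the SLRP genes (0.752). With 4 libraries this is a description of likeness only.

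Genes that act with SLRPs were read from the same fit. Among 27 tested matrix partners, that is fibrillar and other collagens and proteins bound beside them, 3 (11.1%) were called higher and 1 (3.7%) lower. The shares over all genes tested were 1.94% and 0.423%. The list had a median log2 fold change of -0.11. Col1a1, the main collagen of bone, rose from 267 and 306 CPM to 562 and 513 CPM (log2 fold change 0.91 ± 0.19, SE; adjusted p = 0.0257), whereas Col1a2, the other chain of type I collagen, stood at 107, 121, 113 and 119 CPM. Thbs1, which encodes thrombospondin and binds TGF-beta, rose by a log2 fold change of 1.02 ± 0.22 (SE; adjusted p = 0.0316). Col2a1, the cartilage collagen, rose from 0.519 and 0.690 to 6.40 and 2.21 CPM. Col11a1, of the same list, had 12 and 8 counts in mature and 0 and 0 counts in elderly libraries. It was not called (adjusted p = 0.126 in edgeR's quasi-likelihood test). As a share of the longest transcript, countable bases came to 42.1% for Col1a1, 88.5% for Col1a2 and 18.1% for Col2a1. Col6a2, a chain of the beaded-filament collagen that biglycan and decorin bind, fell from 653 and 690 to 323 and 426 CPM (log2 fold change -0.84 ± 0.20, SE; adjusted p = 0.0483). Col1a1 and Col6a2 were thus called in opposite directions.

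Of 18 tested proteases and processing factors that cut SLRPs or mature them, 3 (16.7%) were called higher and 1 (5.56%) lower. The shares over all genes tested were 1.94% and 0.423%. The list had a median log2 fold change of -0.20. Adamts5, an aggrecanase that also cuts biglycan, rose from 431 and 336 CPM to 1333 and 1407 CPM (log2 fold change 1.84 ± 0.20, SE; adjusted p = 9.96e-04). Mmp2, a gelatinase that can cut decorin, rose from 93.3 and 91.5 to 247 and 276 CPM, and Mmp9 from 57.5 and 42.8 to 154 and 166 CPM (adjusted p = 0.00209 for both). Htra1, a serine protease that digests decorin and biglycan, fell from 4.67 and 4.83 to 1.35 and 1.11 CPM (adjusted p = 0.0463). Mmp13 (1059, 1240, 771 and 645 CPM) and Bmp1, the procollagen C-proteinase that removes the propeptides of biglycan and osteoglycin (132, 128, 92.4 and 93.4 CPM), were not called (adjusted p = 0.0991 and 0.299). Of the 12 neutrophil markers tested, 7 were called higher, and all 12 estimates were higher. Their summed CPM was 2242 and 1273 in mature and 4826 and 4632 in elderly libraries. Mmp9 is also a neutrophil gene, and the part of such cells was not tested.

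**Figure D5:**
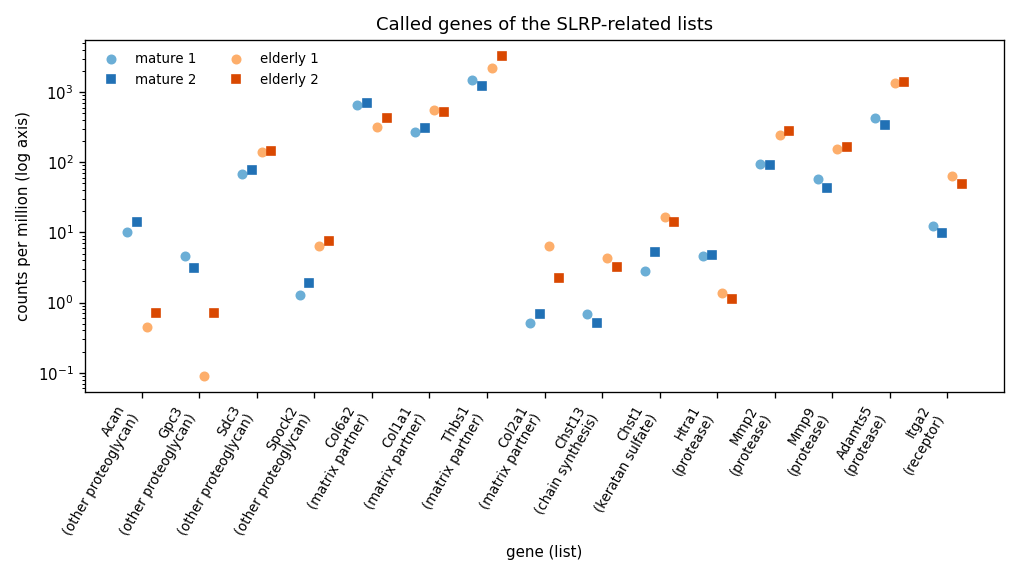
CPM on a log axis, in each of the 4 libraries, of the genes called at an adjusted p under 0.05 in the lists of other proteoglycans, matrix partners, chain synthesis, keratan sulfate synthesis, proteases and receptors. Adamts5, Mmp2, Mmp9, Col1a1, Thbs1 and Itga2 are higher in both elderly libraries, and Acan, Gpc3, Col6a2 and Htra1 are lower.

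The genes that build the sugar chains of SLRPs were read next. Of 26 tested genes for the linker and for chondroitin and dermatan sulfate chains, 1 was called higher and 0 lower in edgeR's quasi-likelihood test, 3.85% called higher against 1.94% of all genes, with 2 higher and 4 lower at an unadjusted p under 0.05 and 0 called lower in DESeq2 (median log2 fold change -0.15). It was Chst13, a chondroitin sulfotransferase gene at 0.692, 0.517, 4.33 and 3.19 CPM. Papss2, which makes the sulfate donor, stood at 123, 133, 172 and 234 CPM and was not called (log2 fold change 0.67 ± 0.21, SE; adjusted p = 0.158). Xylt1 and Xylt2, whose products start the chain, stood at 20.6, 13.5, 11.4 and 13.8 CPM and at 30.6, 27.2, 21.2 and 25.4 CPM. Of 11 tested genes for keratan sulfate, the chain of lumican, fibromodulin and osteoadherin, 1 (9.09%) was called higher and 0 lower in the same tests, with 1 higher and 1 lower at an unadjusted p under 0.05 in edgeR (median log2 fold change -0.24). Chst1, the sulfotransferase that sulfates keratan galactose, rose from 2.86 and 5.34 to 16.6 and 14.0 CPM (log2 fold change 1.89 ± 0.36, SE; adjusted p = 0.0168).

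Of 20 other proteoglycan genes tested, 2 (10%) were called higher and 2 (10%) lower, against 1.94% and 0.423% of all genes. Sdc3, a syndecan of the cell surface, rose from 68.5 and 78.6 to 140 and 145 CPM and Spock2, a testican, from 1.30 and 1.90 to 6.31 and 7.55 CPM (adjusted p = 0.0226 and 0.0206). Acan, the large cartilage proteoglycan aggrecan, fell from 10.1 and 14.3 to 0.451 and 0.716 CPM (adjusted p = 5.76e-04), and Gpc3, a glypican, from 4.67 and 3.10 to 0.0902 and 0.716 CPM (adjusted p = 0.0382). Of 25 receptors and factors bound by SLRPs, 1 (4%) was called higher and 0 lower in edgeR's quasi-likelihood test. At an unadjusted p under 0.05 in that test, 5 were higher and 1 lower, against 7.1% and 3.83% of all genes. Itga2, the collagen-binding integrin chain, rose from 12.2 and 9.83 to 64.7 and 48.9 CPM (adjusted p = 0.00103). Tgfb1, the growth factor bound by decorin, stood at 57.5 and 70.9 CPM in mature and 104 and 83.0 CPM in elderly libraries (adjusted p = 0.326). Lrp1, the endocytic receptor that takes up decorin, stood at 5218, 5124, 5268 and 4601 CPM (adjusted p = 0.945), and Tlr2 and Tlr4, which respond to soluble biglycan, were not called (adjusted p = 0.709 and 0.860).

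Markers of cells that could carry SLRP transcripts were set beside these values. Of all genes in edgeR's quasi-likelihood test, 1.94% were called higher and 0.423% lower. At an unadjusted p under 0.05 in that test, 7.1% were higher and 3.83% lower. Of 14 tested fibroblast and tendon markers, 2 were called higher (Fndc1 and Ly6a), 0 lower, and 10 estimates were higher. Their summed CPM was 82.5 and 104 in mature and 227 and 176 in elderly libraries. Fndc1 alone stood at 7.87 and 11.55 CPM in mature and at 124.5 and 72.7 CPM in elderly libraries. Kera was at 0, with 27 of its 1967 bases countable. The tendon markers Scx and Tnmd stood at 2.34 to 3.79 and 0 to 0.390 CPM. Mkx, another gene of this list, stood at 47.7 and 56.4 CPM in mature and at 24.4 and 40.1 CPM in elderly libraries. Its log2 fold change of -0.69 was not called (adjusted p = 0.299 in edgeR's quasi-likelihood test). At an unadjusted p under 0.05 in that test, 5 fibroblast and tendon markers were higher and 1 lower. All 15 markers of LEPR+ stroma had lower estimates (median log2 fold change -0.45), with 0 called in edgeR's quasi-likelihood test or DESeq2, and 6 lower at an unadjusted p under 0.05 in edgeR. Of 14 osteoblast markers, 2 were called higher (Phex and Col1a1) and 1 lower (Ibsp, 6631 and 5940 against 1450 and 3290 CPM, not called in DESeq2). Of 13 chondrocyte markers, 1 was called higher (Col2a1) and 3 lower (Acan, Hapln1 and Col10a1). Of 10 erythroid markers, 6 were called higher and 0 lower, with summed CPM of 449 and 198 in mature and 1485 and 1323 in elderly libraries. Of 11 endothelial and 11 B-lineage markers, 1 each was called higher (Stab1 and Igj), and of the smooth muscle and pericyte (9), adipocyte (8), megakaryocyte (8) and eosinophil (7) markers, 0 were called in edgeR's quasi-likelihood test. At an unadjusted p under 0.05, 1 smooth muscle and pericyte marker was higher, which DESeq2 called, and 1 adipocyte marker each was higher and lower. In the same test, 5 endothelial markers were higher and 0 lower (median log2 fold change 0.90, 9 of 11 estimates higher, 2 called in DESeq2 and 3 in the robust fit), and 4 B-lineage markers were higher and 2 lower. The part of these cell types in the Dcn and Lum values was not tested.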

How the data were processed

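RNA was sequenced in 4 libraries, 2 per age, grouped by the sample titles. The methods of the study describe poly(A) selection, except for some samples processed as total RNA. Those are given under names that the sample titles do not use, and among them is an age in weeks close to that of the mature mice. Whether any of the 4 libraries was made from total RNA is therefore not known here, and a difference in library type between the ages was not tested. The authors removed adapters with CutAdapt, mapped reads with HISAT2 to NCBI Build 37 (mm9) and deposited whole-number featureCounts counts per Ensembl transcript, without normalization. Tool versions and the strand setting are not given in the sources used here. Totals ran from 10472117 to 15650518 counts, and 1 count of a gene was worth about 0.0865 CPM in mature replicate 1.

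Transcripts were matched to GENCODE M1 (388 of 95883 unmatched, at most 0.0888% of counts) and summed per gene. Genes with more than 2 counts in all were fitted with edgeR 4.0.16 (limma 3.58.1, R 4.3.3; TMM, quasi-likelihood F test, 2-sided, prior count 0.125, common dispersion 0.0703), with Benjamini-Hochberg adjustment over 22214 genes. With 2 libraries per age an exact permutation test cannot go below p = 0.333 and was not used. The test was checked on simulated counts, drawn with the same dispersion for every gene, which the real libraries need not share. Replicates of an age differed beyond counting noise (chi-square per degree of freedom 16.1 and 34.2), so none was a copy of the other. This cannot show whether they came from separate RNA pools. Levels were divided by countable bases, and sequences were read with Biopython 1.88 (BLOSUM62 alignments).

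Named genes are the 10 members, 8 further SLRP genes, overlapping or neighbouring genes, in each related list at most 4 called genes per direction, and the 3 genes with the nearest profile to Dcn and Aspn. Uncalled genes named beside them, and genes named in the marker lists, were chosen after their values were seen. Members and lists were chosen with earlier results of these data known. Alternatives were DESeq2 1.42.0, the exact test, the robust fit, other filters, scalings, features, thresholds and prior counts, the replicate block and each library left out.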

Additional observations from a re-analysis of the deposited data

How the results depend on the processing

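The number of SLRP genes called was 1 and became 2 (Dcn and Lum) with DESeq2, the robust quasi-likelihood fit, no filter, library size alone, protein-coding genes only, counts per transcript and the replicate block. It became 0 with the exact test (0 at an unadjusted p under 0.05) and with a threshold of an absolute log2 fold change over 2 beside the adjusted p (2 at an unadjusted p under 0.05), and was 0 to 1 with 1 library left out. The cause was not tested. A fit with 1 library in an age assumes that the lone library varies like the others.

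Dcn kept its direction in 16 of 16 alternatives and was called in 12. Its log2 fold change was 1.16 in the exact test, where it was not called, and 1.01 to 1.29 with 1 library left out. That of Lum was 0.98 with DESeq2, 0.97 with the robust fit, 0.98 with no filter, 1.01 with library size alone, 0.94 with protein-coding genes only, 0.91 with the replicate block and 1.03 per transcript, with a call in each. The values of Podn turned to 0.038 with library size alone and to 0.029 per transcript. With 1 library left out, the log2 fold change ran from -0.15 to 0.12 for Podn, from -0.55 to 0.063 for Fmod, from -0.61 to 0.32 for Prelp, from -0.66 to 0.16 for Ogn, from -0.75 to 1.78 for Aspn and from -0.65 to 0.002 for Chad. Each of these members was uncalled throughout.

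Libraries with the same replicate number did not deviate alike over genes as a whole: their deviations correlated at 0.027. This cannot show whether the numbers mark a pairing in the design. With the replicate block, 962 genes were called higher and 314 lower, against 430 and 94 without it. The exact test called 179 and 29, DESeq2 551 and 153, the robust fit 691 and 188 and the fit with no filter 866 and 218. In the exact test 0 of the 18 proteases were called, with 5 higher and 2 lower at an unadjusted p under 0.05, whereas DESeq2 called 3 higher and 1 lower. Among the SLRP members, Chad had the fewest counts (77 to 106 per library), and Dcn-202 had 15 to 47. Several called genes of the related lists rest on fewer than these in some libraries, such as Gpc3 (1 and 11 counts in elderly libraries), Acan (5 and 11 in elderly), Col2a1 and Chst13 (6 to 8 in mature).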
